A study of Mus musculus with 16 samples.

Results

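The peptide receptors of ganglion neurons described here are 10 G protein-coupled receptor genes: Hcrtr1 and Hcrtr2, Cckar and Cckbr, Npy1r, Npy2r and Npy5r, Galr1, Adcyap1r1 and Vipr2. They were taken by symbol from tables of 24411 mouse genes. The genes were chosen by name with earlier results of these libraries known, among them the lower Cckar counts of ganglia with the MYCN transgene and wild-type Runx1t1. Which contrast weighed in the choice is not recorded, and the one behind those lower counts is assumed to have done so. That contrast is therefore given as a description, and no test below supports the choice of the list.

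The study asked how loss of 1 functional allele of Runx1t1, a transcriptional co-repressor gene, alters sympathetic ganglia and tumors driven by MYCN. RNA-Seq was made from celiac ganglia of 2-week-old mice and from neuroblastomas, 16 libraries in 5 groups. Ganglia without the transgene (called TF, transgene-free, here) came from Runx1t1 wild-type mice (n = 4) and from Runx1t1 heterozygotes (n = 3). Ganglia homozygous for Th-MYCN came from Runx1t1 wild-type mice (n = 3) and from Runx1t1 heterozygotes (n = 2). The 4 tumors were homozygous for Th-MYCN and wild-type for Runx1t1, and the labels give no age for them. Th-MYCN puts human MYCN under a tyrosine hydroxylase promoter, which drives it in neuroectodermal cells, on a 129/SvJ background. The heterozygotes carry a knockout made by insertion (CBB6-Runx1t1tm1Fc/H), which was crossed to that line. Ganglia and tumors were whole tissue, so fewer cells of a type and less RNA per cell cannot be told apart in any value below. The labels do not say whether libraries of 1 group came from separate mice, so p-values measure the spread between these libraries. The word Hom in the column headers was read as homozygous wild-type Runx1t1.

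These receptors let neurons respond to peptides released by nerve endings, gut cells or the neurons themselves. The orexin receptors (Hcrtr1, Hcrtr2) and the cholecystokinin receptors (Cckar, Cckbr) couple largely to Gq proteins, which activate phospholipase C. The neuropeptide Y receptors (Npy1r, Npy2r, Npy5r) and the galanin receptor Galr1 couple to Gi proteins and lower cAMP, whereas the PACAP receptor Adcyap1r1 and the VIP and PACAP receptor Vipr2 couple to Gs and raise it. Neuropeptide Y is a classical co-transmitter of noradrenaline in sympathetic neurons, and Npy2r is known as its presynaptic receptor.

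Of the members, 8 had an entry in the RefSeq promoter table (GRCm38.p6), and Cckar and Galr1 had none. The bases upstream of the RefSeq start that lie outside the annotated gene are shown for 3 receptors that were lower in tumors and for Adcyap1r1, whose level in tumors overlapped that of ganglia. Each is written 5′ to 3′ on the strand of the gene, and capitals mark the E-box CACGTG, a sequence that MYC family proteins are known to bind. The sequences lie at chr7:105425481-105425730 (Cckbr, plus strand), chr8:66688129-66688344 (Npy5r, minus strand), chr3:82548086-82548335 (Npy2r, minus strand) and chr6:55451728-55451977 (Adcyap1r1, plus strand), and the Npy5r run ends where the annotated gene begins, short of its RefSeq start.
Cckbr: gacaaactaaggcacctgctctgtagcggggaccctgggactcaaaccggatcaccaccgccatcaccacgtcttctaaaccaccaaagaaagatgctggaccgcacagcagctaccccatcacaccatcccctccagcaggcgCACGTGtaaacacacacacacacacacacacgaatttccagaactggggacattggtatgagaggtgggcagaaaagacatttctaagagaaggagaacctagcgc
Npy5r: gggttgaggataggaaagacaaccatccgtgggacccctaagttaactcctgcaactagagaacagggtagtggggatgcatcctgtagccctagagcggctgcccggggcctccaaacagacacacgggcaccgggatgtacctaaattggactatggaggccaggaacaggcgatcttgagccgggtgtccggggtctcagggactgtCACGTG
Npy2r: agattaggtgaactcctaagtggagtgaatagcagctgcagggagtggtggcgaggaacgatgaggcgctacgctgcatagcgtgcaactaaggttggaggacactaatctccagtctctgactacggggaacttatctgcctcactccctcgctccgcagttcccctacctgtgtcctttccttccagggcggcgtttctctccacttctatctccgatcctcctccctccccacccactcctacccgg
Adcyap1r1: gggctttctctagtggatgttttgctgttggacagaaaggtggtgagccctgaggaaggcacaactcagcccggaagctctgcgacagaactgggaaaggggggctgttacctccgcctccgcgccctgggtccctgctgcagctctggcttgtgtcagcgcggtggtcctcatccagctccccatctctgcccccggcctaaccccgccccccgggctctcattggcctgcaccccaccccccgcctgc

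CACGTG, which reads the same on both strands, began 106 bases before the start of Cckbr and 40 bases before the start of Npy5r. The windows of 250 bases before the other 6 receptors with an entry held none. Of 32817 windows of that length in the table, 6.02% held CACGTG. The motifs CATCTG (14.5% of windows), TAATTA (4.85%) and TGACGTCA (1.55%), searched on both strands, were in no member's window. A match is only a match of letters, and no binding was measured here.

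Ganglia transcribed 5 of the 10 receptors at above 5 TPM (a share of all transcripts in a library, corrected for gene length, and the scale of every level below). In the 7 TF ganglia, Adcyap1r1 was highest at 91.9 ± 24.1 TPM (SD), followed by Cckar at 38.0 ± 12.8 and Hcrtr1 at 34.8 ± 10.9. Adcyap1r1 was above Cckar in 7 of 7 libraries, whereas Cckar was above Hcrtr1 in only 3 of 7, so the order of this pair is not resolved. Npy1r (10.5 ± 3.75 TPM), Npy2r (5.53 ± 2.20) and Npy5r (1.74 ± 0.92) followed in that order in 7 of 7 libraries, although their ranges overlapped. Cckbr (0.91 ± 0.85 TPM), Vipr2 (0.82 ± 0.73), Galr1 (0.25 ± 0.31) and Hcrtr2 (0.064 ± 0.066) were near the floor of detection, and their order changed from library to library. Within the orexin and the cholecystokinin receptors, 1 of the pair thus made up nearly all of the level.

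**Figure D1:**
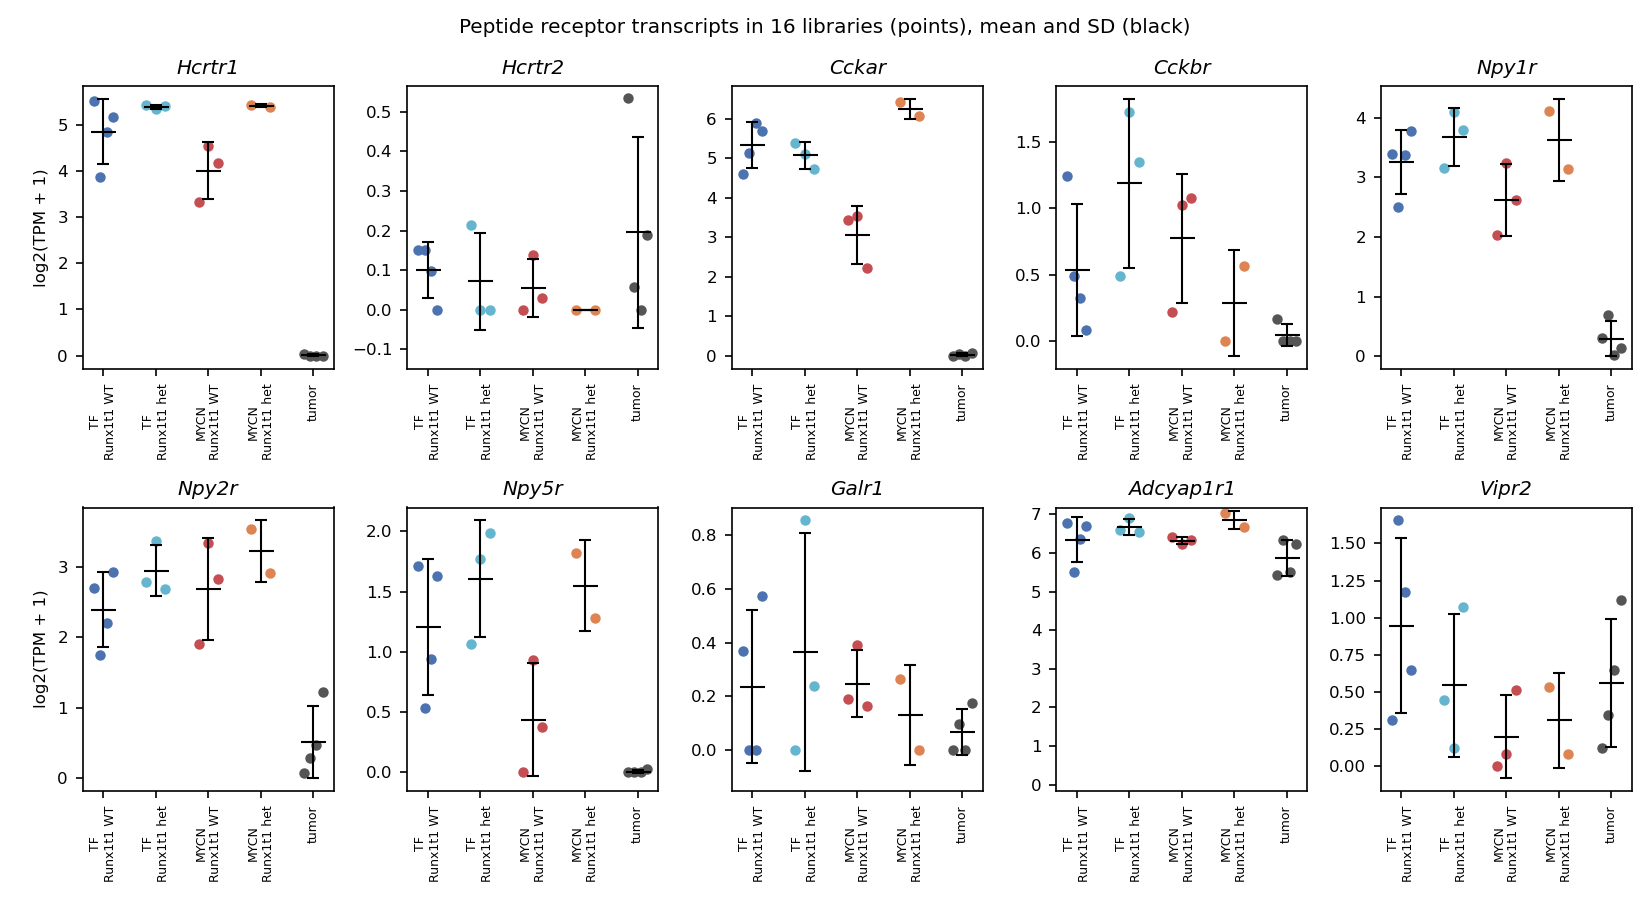
Levels of the 10 receptors as log2(TPM + 1), 1 panel per gene with its own vertical scale. Each point is a library, black marks are the mean ± SD, TF is transgene-free and WT is wild-type. Hcrtr1, Cckar, Npy1r and Npy5r lie near 0 in tumors, and Cckar is lowest among ganglia with MYCN and wild-type Runx1t1.

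The tissue was checked against marker genes. Th, the rate-limiting enzyme of catecholamine synthesis, was at 391 to 2033 TPM in the 12 ganglia and at 172 to 548 TPM in tumors. Depth ran from 10692291 to 38618760 counts per library. Among ganglia, replicates 1 and 2 had at most 14221947 counts and replicates 3 and 4 at least 24873942. Both MYCN heterozygotes were replicates 1 and 2, so depth and genotype are partly confounded in comparisons with them. Replicate 2 of the TF Runx1t1 wild-type ganglia stood apart: its 5 lymphocyte markers summed to 820 TPM, against 3.35 to 16.6 in the other 15 libraries, and its 20 neuron markers summed to 8587 TPM, the lowest among ganglia. It also had the lowest Hcrtr1 (13.7 TPM), Adcyap1r1 (44.7), Npy1r (4.69), Npy2r (2.35) and Npy5r (0.45) of the TF ganglia, but not the lowest Cckar, and the highest Vipr2 (2.15 TPM).

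Tumors held few transcripts of most of these receptors. Of the 9 members with enough counts to be tested (Hcrtr2 was not), 6 were lower in tumors than in the 7 TF ganglia and none was higher (edgeR's quasi-likelihood test, adjusted p under 0.05 over 16665 genes). In the same comparison 61.4% of all tested genes were called, 5095 higher and 5145 lower. The median log2 fold change of the 9 members was -4.39, beside -0.06 over all tested genes. It is the value of Cckbr, whose tumor counts all came from 1 library. Only members with enough counts somewhere enter these figures. Whether this comparison also weighed in the choice of the list is not recorded. Nothing about the list is therefore read from the count or the median. Fold sizes below are ratios of pooled counts per effective library size, with a 95% interval for counting error only.

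The orexin receptor Hcrtr1 (chromosome 4, 130130217 to 130139359, GRCm38) showed the largest ratio, although its interval for counting error overlapped that of Cckar. Hcrtr1 stood at 44.9, 13.7, 27.5 and 35.1 TPM in the TF Runx1t1 wild-type ganglia, at 42.0, 39.5 and 41.2 TPM in the TF heterozygotes, and at 0.03, 0, 0 and 0 TPM in tumors. A single count remained in 1 tumor, against 4773 counts in the 7 ganglia, a ratio of 3653 (interval 655 to 144315; edgeR adjusted p = 6.3e-08). No ganglion came near the tumor values. The other orexin receptor, Hcrtr2, had 10 counts in the 7 ganglia and 36 in the 4 tumors, of which the highest tumor gave 0.45 TPM and another gave 0, and the groups overlapped.

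Cckar (chromosome 5, 53697776 to 53707705) was at 23.4, 33.9, 58.2 and 50.7 TPM in the TF Runx1t1 wild-type ganglia, at 40.9, 33.3 and 25.4 in the TF heterozygotes and at 0, 0.04, 0 and 0.05 in tumors. Its 7342 ganglion counts against 5 tumor counts gave a ratio of 1124 (interval 481 to 3462; edgeR adjusted p = 2e-07). The second cholecystokinin receptor, Cckbr (chromosome 7, 105425731 to 105470898), was low everywhere: 160 counts in the ganglia and 4 in the tumors, all 4 in replicate 1, gave a ratio of 30.6 (interval 11.7 to 114; edgeR adjusted p = 0.0128). Its ranges overlapped, from 0.06 to 2.32 TPM in ganglia and from 0 to 0.12 in tumors. The fitted log2 fold change of Cckbr was -4.39 (SE, the standard error, 1.37) and -7.37 without that tumor.

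All 3 neuropeptide Y receptors were lower in tumors, to different extents. Npy1r (chromosome 8, 66697192 to 66706792) was at 4.69 to 16.1 TPM in TF ganglia (median 9.52) and at 0.24, 0.62, 0.02 and 0.1 TPM in tumors, a ratio of 32.0 (interval 24.4 to 42.9; log2 fold change -4.91, SE 0.69, edgeR adjusted p = 3.29e-05). Its log2 fold change ran from -5.95 to -4.54 when single libraries were left out. Npy5r (chromosome 8, 66679965 to 66688128), its neighbour on the opposite strand with 9063 bases between them, was at 0.45 to 2.97 TPM in ganglia (median 2.1) and had 1 count in the 4 tumors, a ratio of 211 (interval 37.6 to 8373; edgeR adjusted p = 0.000115). Npy2r (chromosome 3, 82538383 to 82548084) kept the most, at 0.05, 0.22, 0.39 and 1.35 TPM in tumors against 2.35 to 9.27 in ganglia (log2 fold change -3.0, SE 0.69, edgeR adjusted p = 0.00177). The highest tumor, replicate 4, gave 87 of its tumor counts, and without it the log2 fold change was -4.22. For each of the 3, every tumor lay below every TF ganglion, though how many of all genes did so was not counted.

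The receptors of the PACAP and VIP family overlapped between tumors and ganglia. Adcyap1r1 (chromosome 6, 55451978 to 55501451) was at 42.2, 79.4, 44.6 and 74.3 TPM in tumors, overlapping the 44.7 to 118 TPM of TF ganglia. Its log2 fold change was -0.19 (SE 0.24; -0.66 to 0.28 at 2 SE; edgeR adjusted p = 0.50). Its mean in tumors was 0.654 of that in TF ganglia in TPM and 0.884 in TMM-normalized counts (CPM), so the scale matters for this small difference. Adcyap1r1 made up 49.3% ± 4.31 (SD, n = 7) of the summed TPM of the 10 receptors in TF ganglia and 97.5% ± 0.97 (SD, n = 4) in tumors. Vipr2 was at 0.09 to 2.15 TPM in TF ganglia and at 0.09, 0.27, 0.57 and 1.17 TPM in tumors, and its log2 fold change was -0.06 (SE 0.95; edgeR adjusted p = 0.96), which leaves large differences in either direction undetected. Galr1 was at 0 to 0.81 TPM in ganglia and 0 to 0.13 in tumors, with 59 and 11 counts, a ratio of 4.11 (interval 2.14 to 8.67; edgeR adjusted p = 0.26).

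**Figure D2:**
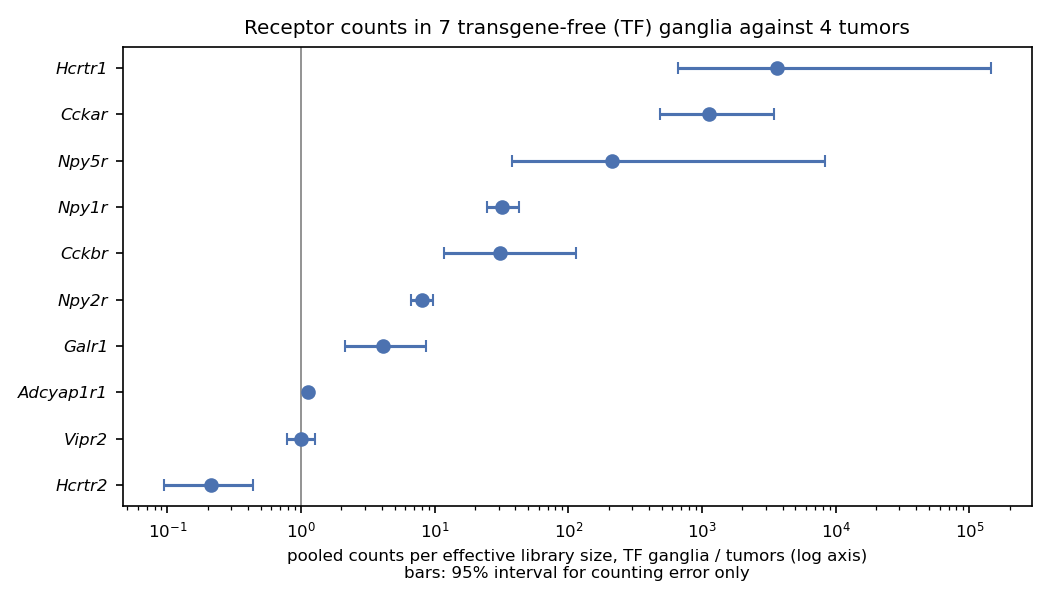
Ratio of pooled counts per effective library size, 7 TF ganglia over 4 tumors, for each receptor on a logarithmic axis, with bars for the 95% interval of counting error only. Hcrtr1 and Cckar exceed 1000, the neuropeptide Y receptors run from 7.97 (Npy2r) to 211 (Npy5r), and Adcyap1r1 and Vipr2 lie near 1.

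Other cell types differed between these groups as well. All 8 glial markers were lower in tumors (summed 13.8 to 21.4 TPM, against 557 to 2004 in TF ganglia), as were 6 of 6 fibroblast markers, and all 6 cycling markers were higher. Of 20 sympathetic neuron markers, 11 were lower and 5 higher in tumors, with a median log2 fold change of -1.05, and their sum ran from 5567 to 9971 TPM against 8587 to 25718 in TF ganglia. Per 1000 TPM of these neuron markers, Hcrtr1 was at 1.54 to 2.03 TPM in TF ganglia and at most 0.0030 in tumors, and Cckar was at 0.95 to 3.95 and at most 0.0090. Npy1r was at 0.38 to 0.62 and at most 0.098, so on this scale too the groups did not overlap. Npy2r did overlap (0.23 to 0.36 against 0.005 to 0.24), and Adcyap1r1 was at 4.28 to 5.28 in TF ganglia and 4.24 to 13.3 in tumors. The part of tissue makeup in these differences was not tested further.

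In ganglia that carried MYCN, Cckar, Hcrtr1, Npy1r and Npy2r were above the tumors in every library. The share of all genes that separated from tumors in this way was not counted. The ganglia with MYCN and wild-type Runx1t1 exceeded the tumors in 6 of 9 members (Cckar, Cckbr, Hcrtr1, Npy1r, Npy2r and Npy5r; 34.5% of all genes were called in either direction), and in 4 when the fit held just the 2 groups, without Cckbr and Npy5r. With a replicate block the count was 5, again without Cckbr. Npy5r was at 0 TPM in replicate 1 of these ganglia, as in 3 of the 4 tumors, and Cckbr at 0 in replicate 1 of the MYCN heterozygotes, so both overlapped the tumors there. The heterozygotes with MYCN exceeded them in 5, the same without Cckbr (45.5% of all genes). Both comparisons share the 4 tumors with the one above. Hcrtr1 had 1106 counts in the 3 MYCN Runx1t1 wild-type ganglia and 902 in the 2 MYCN heterozygotes, against the single tumor count. Npy1r was higher than in tumors by a log2 fold change of 4.01 (SE 0.70) in the former and 5.04 (SE 0.76) in the latter, and Npy2r by 3.14 (0.75) and 3.58 (0.81). Over omissions of single libraries, Npy1r ran from 3.62 to 5.06 in the former and from 4.44 to 6.09 in the latter. Npy2r ran from 2.74 to 4.36 and from 3.20 to 4.80. For Cckbr, 71 counts against the 4 in tumors gave a ratio of 29.2 (interval 10.9 to 110; edgeR adjusted p = 0.0353) in the former, and 6 counts one of 6.89 (interval 1.63 to 33.2; edgeR adjusted p = 0.23) in the latter. The first call was lost with a replicate block (edgeR adjusted p = 0.0624). It was also lost without any of 5 single libraries (tumor replicates 2, 3 and 4, MYCN Runx1t1 wild-type replicates 3 and 4), with adjusted p up to 0.0888.

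Among ganglia, Cckar lay on either side of the TF levels according to genotype. It was at 9.85, 10.6 and 3.68 TPM with MYCN and wild-type Runx1t1 and at 85.3 and 66.6 TPM with MYCN and 1 functional Runx1t1 allele, against 23.4 to 58.2 TPM in the 7 TF ganglia. The 3 former libraries thus lay below every TF ganglion and the 2 latter above every one. Of the 16665 tested genes, 40 showed this arrangement in TMM-normalized counts (0.24%), among them Cckar and no other member. The arrangement was defined from the values of Cckar, so nothing is read from its place among the 40. From the lists of other peptide receptors and of signalling genes, 3 of 78 tested genes did so: Npy4r, the pancreatic polypeptide receptor, Sstr2, a somatostatin receptor, and Gna14, a Gq-class G protein subunit.

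With wild-type Runx1t1, 1 of 9 members was called between MYCN and TF ganglia, beside 0.936% of all genes (156 genes by edgeR and 1274 by DESeq2), and this was Cckar. Its log2 fold change was -2.32 (SE 0.46; edgeR adjusted p = 0.0397; 1.04e-05 by DESeq2). Since this contrast is assumed to have weighed in the choice of the list, nothing is read from the count. The edgeR call was lost with a replicate block (adjusted p = 0.0736) and when the fit held just the 2 groups (0.378), where edgeR called 0 genes. It was also lost without any 1 of 13 of the 16 libraries, with adjusted p from 0.0126 to 0.231 over all 16, the highest without replicate 1 of the MYCN Runx1t1 wild-type ganglia. Hcrtr1 was at 9.02, 22.1 and 16.9 TPM in these ganglia and overlapped the 13.7 to 44.9 TPM of the TF Runx1t1 wild-type ganglia (log2 fold change -0.89, SE 0.37; adjusted p = 0.21). Npy5r, at 0, 0.91 and 0.3 TPM, had a log2 fold change of -1.76 (SE 0.94; adjusted p = 0.31), and Npy1r, at 3.08, 8.42 and 5.14 TPM, of -0.68 (SE 0.65; adjusted p = 0.59). Vipr2, at 0, 0.06 and 0.43 TPM, had one of -2.59 (SE 1.27; adjusted p = 0.27), which ran from -4.78 without MYCN Runx1t1 wild-type replicate 4 to -1.91 without TF wild-type replicate 2. Adcyap1r1, at 84.2, 74.0 and 79.3 TPM, had one of -0.04 (SE 0.28; -0.61 to 0.53 at 2 SE).

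In Runx1t1 heterozygotes no member was called between MYCN and TF ganglia (0% of all genes; 1 member and 242 genes had an unadjusted p under 0.05; DESeq2 also called no member and 13 genes). The 1 member was Cckar, higher with MYCN by a log2 fold change of 1.14 (SE 0.50; adjusted p = 1), in 2 of 2 libraries above all 3 TF heterozygotes. How many of all genes separated in this way was not counted. Hcrtr1 was at 42.3 and 40.9 TPM with MYCN and at 39.5 to 42.0 TPM without. The difference between the MYCN effects in the 2 Runx1t1 genotypes was called for no member and no gene (0% of all genes; 1 member and 937 genes at an unadjusted p under 0.05). For Cckar it was 3.46 on the log2 scale (SE 0.67; unadjusted p = 0.000156, edgeR adjusted p = 0.52), and DESeq2 did call it (3.48, adjusted p = 0.000179), as the only member among 30 genes. This difference contains the contrast assumed to have weighed in the choice of the list, so nothing is read from either value. For Hcrtr1 it was 0.87 (SE 0.56; edgeR adjusted p = 0.85).

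With MYCN present, heterozygotes and wild types differed in no member at the threshold (0.012% of all genes, or 2, were called; 2 members and 2094 genes had an unadjusted p under 0.05). Cckar was higher in heterozygotes by a log2 fold change of 3.12 (SE 0.52; edgeR adjusted p = 0.0945), a ratio of mean TPM of 9.45, with 2 of 2 heterozygotes above 3 of 3 wild types. DESeq2 called it (3.14, adjusted p = 8.15e-07, among 261 genes), and so did edgeR without replicate 3 of the MYCN Runx1t1 wild-type ganglia (adjusted p = 0.0310), and over all 16 omissions the adjusted p ran from 0.0310 to 0.99. This comparison uses the same wild-type libraries as the contrast assumed to have weighed in the choice. Hcrtr1 was higher by 1.29 (SE 0.43, unadjusted p = 0.00919 and adjusted p = 0.31 by edgeR), again without overlap. Npy5r and Adcyap1r1 did not overlap between these groups either. The share of all genes without overlap here was not counted, so nothing is read from it. Npy5r (2.53 and 1.43 TPM in heterozygotes) had a log2 fold change of 2.16 (SE 1.06; adjusted p = 0.41), Npy1r (16.3 and 7.83 TPM) one of 1.03 (SE 0.75; adjusted p = 0.59), with overlap, and Adcyap1r1 (129 and 101 TPM) one of 0.43 (SE 0.34; adjusted p = 0.62). When single libraries were left out, these ran from 1.66 to 3.41 for Npy5r and from 0.42 to 1.45 for Npy1r.

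Neither comparison that averages over the other factor or lacks MYCN called a member. Heterozygotes without MYCN and TF wild types differed in 0 of 9 members (0% of all genes; no member and 687 genes at an unadjusted p under 0.05; DESeq2 called no member and 2 genes), and the log2 fold change of Cckar was -0.34 (SE 0.43). All 5 MYCN ganglia against all 7 TF ganglia gave 0 of 9 members (0.042% of all genes; no member and 1574 genes at an unadjusted p under 0.05; DESeq2 called no member and 354 genes).

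**Figure D3:**
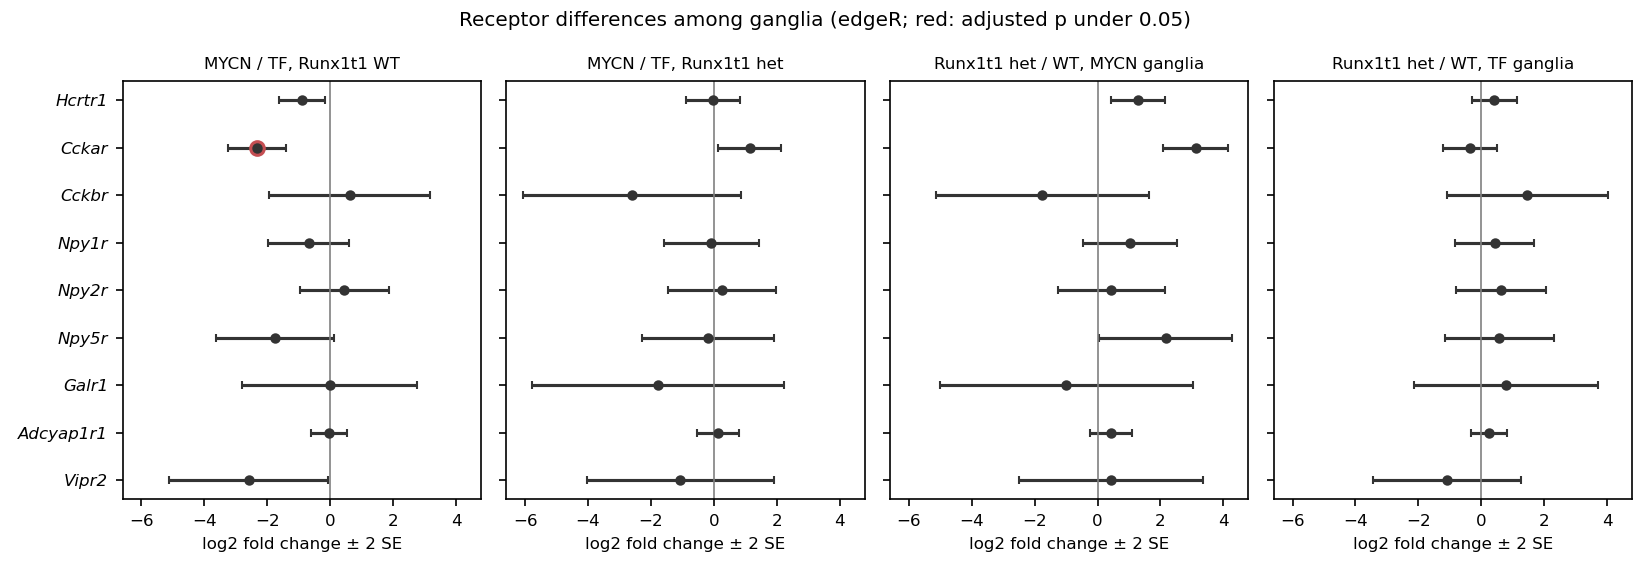
Log2 fold change of 9 receptors (Hcrtr2 had too few counts) in 4 comparisons among ganglia, with bars of 2 SE from edgeR; red marks an adjusted p under 0.05. Cckar is at -2.32 in the first panel and 3.12 in the third, and the intervals of low receptors such as Galr1 span several log2 units.

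Summed neuron markers were set beside these values, and the part of neuron content in the values was not tested. The 20 neuron markers summed to 11332 to 17819 TPM in the 3 ganglia with MYCN and wild-type Runx1t1 and to 20532 and 23576 TPM in the 2 MYCN heterozygotes, and none of the 20 was called between MYCN and TF ganglia with wild-type Runx1t1 or between the MYCN groups. Per 1000 TPM of neuron markers, Cckar was at 0.227 to 0.869 TPM in the former, 3.24 and 3.62 in the latter and 0.955 to 3.95 in TF ganglia, so only the lower side stayed clear of TF ganglia. Hcrtr1 was at 0.796 to 1.24 TPM, at 1.79 and 1.99 and at 1.54 to 2.03 on this scale. In replicate 2 of the TF wild-type ganglia, low in Hcrtr1 by TPM, it was 1.59, inside the range of the other TF ganglia. The 6 cycling markers summed to 1054 and 566 TPM in replicates 1 and 4 of the MYCN Runx1t1 wild-type ganglia and to 61.7 to 285 TPM in the other 10 ganglia, and their part in the receptor values was not tested.

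**Figure D4:**
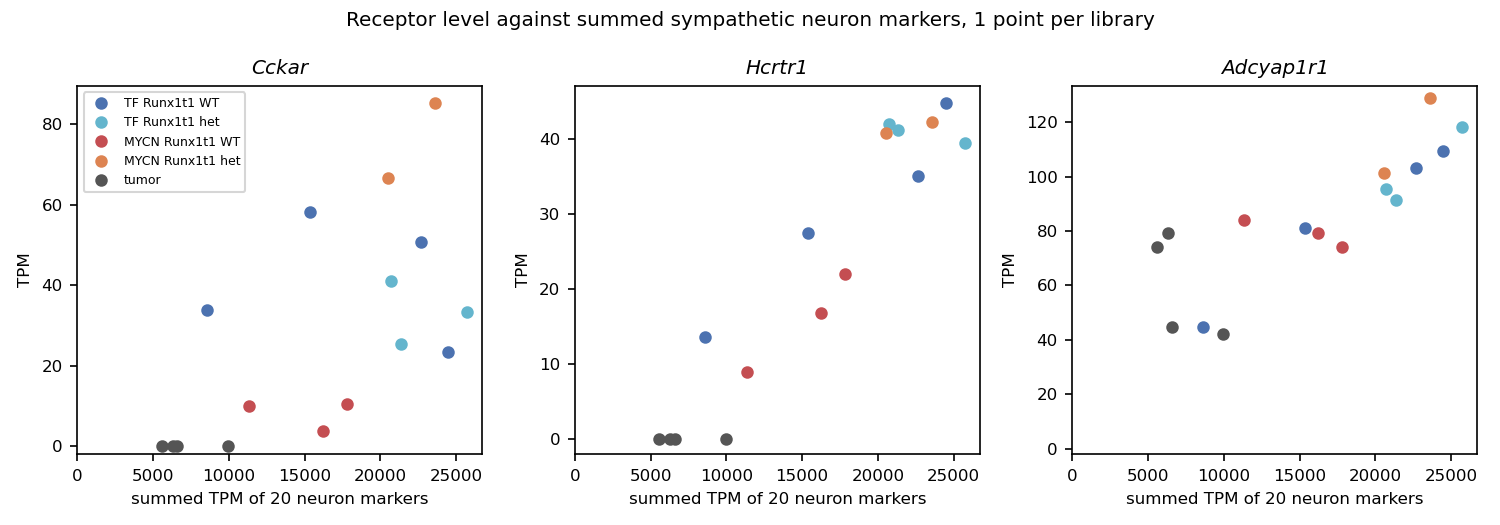
Level of Cckar, Hcrtr1 and Adcyap1r1 (TPM) against the summed TPM of 20 sympathetic neuron markers, 1 point per library, coloured by group. Hcrtr1 is at 0.03 TPM or less in all 4 tumors, Adcyap1r1 stays above 42 TPM in every library, and the 2 MYCN heterozygotes have the highest Cckar.

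The peptides that act on receptors of these families were transcribed unevenly. Npy, the precursor of neuropeptide Y, was at 1961 to 5468 TPM in TF ganglia, at 1130, 1606 and 1126 TPM with MYCN and wild-type Runx1t1, at 6386 and 4322 TPM in MYCN heterozygotes and at 108, 33.1, 48.0 and 13.9 TPM in tumors. Gal, the galanin precursor, was at 42.1 to 412 TPM in TF ganglia and 0.49 to 4.55 TPM in tumors, and Vip at 1.89 to 79.8 and 0.04 to 1.19 TPM. These 3 fell in tumors by edgeR, with log2 fold changes of -5.83 (SE 0.56) for Npy, -6.30 (0.79) for Gal and -5.51 (1.29) for Vip, and 0 of 5 tested ligands rose; 3 of 5 is near the 61.4% of all genes called in this comparison. Adcyap1, the PACAP precursor, was at 0 to 1.42 TPM in TF ganglia, at 6.13, 3.39 and 6.67 TPM with MYCN and wild-type Runx1t1, at 0.57 and 3.99 TPM in MYCN heterozygotes and at 0 to 5.42 TPM in tumors (log2 fold change 2.21, SE 1.06, adjusted p = 0.0842), and Spx, the spexin precursor, was at 0 to 1.65 TPM in every library. Hcrt and Cck, the precursors of orexins and cholecystokinin, were at most 0.58 and 1.66 TPM in any library and at 0 in all tumors, Pyy was at most 1.49 TPM, and Ppy and Galp were at 0 in all 16. No ligand was called in a comparison among ganglia.

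**Figure D5:**
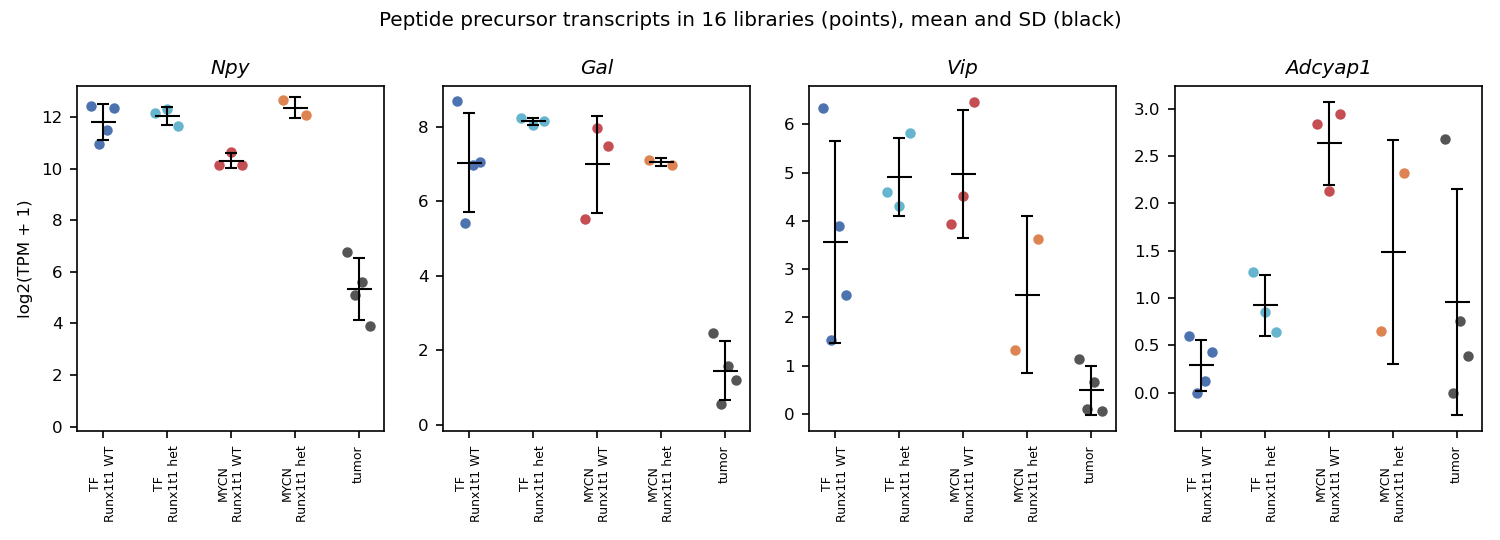
Levels of 4 peptide precursors as log2(TPM + 1), 1 panel per gene with its own vertical scale, points for libraries and black marks for the mean ± SD. Npy, Gal and Vip are lowest in tumors, and Npy is lower in the 3 ganglia with MYCN and wild-type Runx1t1 (1126 to 1606 TPM) than in any TF ganglion.

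Of 6 further receptors of the same peptide families, 4 fell in tumors and none rose, a share near the 61.4% of all genes called, with a median log2 fold change of -4.17 (-0.06 over all genes). They were Npy4r (1309 counts in TF ganglia and 6 in tumors, a ratio of 167, interval 76.5 to 456), the secretin receptor Sctr (log2 fold change -4.92, SE 0.86), the galanin receptor Galr2 (-3.41, 0.59) and Npy6r, a Y receptor. Npy6r had 153 counts in TF ganglia and 0 in tumors, at least 39-fold lower against a floor of 3 counts over the pooled tumors. Npy4r was at 7.04 to 15.4 TPM in TF ganglia, at 1.93, 4.89 and 4.02 TPM with MYCN and wild-type Runx1t1, at 17.3 and 16.9 TPM in MYCN heterozygotes and at 0, 0.11, 0 and 0.06 TPM in tumors. None of the 6 was called among ganglia.

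Of 43 tested receptors for other peptides, 19 fell and 6 rose in tumors, again near the 61.4% of all genes called, with a median log2 fold change of -1.47. The relaxin receptor Rxfp1 was at 8.11 to 46.5 TPM in TF ganglia and had 1 count in the 4 tumors, and the angiotensin receptor Agtr1a (-4.55, SE 0.53), the neurotensin receptor Ntsr1 (616 counts in TF ganglia and 10 in tumors, with overlap at 0.05 to 4.17 and 0 to 0.09 TPM) and the bradykinin receptor Bdkrb2 (-4.18, 0.37) also fell. In the opposite direction, the angiotensin receptor Agtr2 rose from 1.14 to 3.16 TPM in TF ganglia to 325, 345, 252 and 370 TPM in tumors (log2 fold change 7.85, SE 0.69), and Ntsr2, a neurotensin receptor, by 5.20 (0.81). Agtr2 was also the only one of the 43 called among ganglia, at 159, 7.4 and 87.7 TPM with MYCN and wild-type Runx1t1 (log2 fold change 5.55, SE 0.79, edgeR adjusted p = 0.0263). It was at 10.6 and 33.5 TPM in MYCN heterozygotes, also above all TF ganglia, and was called over all MYCN ganglia (4.54, SE 0.59, edgeR adjusted p = 0.0107). Both calls were lost with a replicate block and when the fit held just the groups compared, where 0 genes were called.

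Of 29 signalling genes downstream, 15 fell and 6 rose in tumors, beside 61.4% of all genes called (5145 lower and 5095 higher), with a median log2 fold change of -0.61. On the Gq side, used by Cckar and Hcrtr1, Gna14 (-6.41, SE 0.59) and the phospholipase Plcb3 (-3.44, 0.28) fell, while Plcb1 rose (1.62, 0.22). Gnal, a Gs-class subunit, fell (-2.28, 0.35), and so did Adcy4 (-2.35, 0.85), at 0.36 to 15.6 TPM in TF ganglia and 0.26 to 1.66 in tumors, with overlap. The adenylyl cyclase Adcy1 rose (2.45, 0.31). The potassium channel subunit Kcnj6 was called higher at 0.38 to 4.5 TPM in tumors, against 0 to 0.61 in TF ganglia, with overlap and with 5 of the 7 ganglia at 0. Adcy8 was called higher (1.2, 0.45), but it was at 7.2, 10.2, 15.3 and 57.8 TPM in tumors and 6.29 to 17.8 TPM in TF ganglia, so that 1 tumor (replicate 4) alone lay above the ganglia. Adcy1 and Kcnj6 were also higher in ganglia with MYCN and wild-type Runx1t1 than in TF wild types (adjusted p = 0.0379 and 0.0397, edgeR; Kcnj6 had 0 counts in the latter), and both calls were lost with a replicate block or with just those 2 groups fitted, where 0 genes were called.

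Genes whose pattern over the 16 libraries was most like a member are a description in which the split between tumors and ganglia dominates. On the log2(CPM + 1) scale, the 5 genes with the highest Pearson r to Cckar were Slc38a11 (0.992), Gna14 (0.989), Amigo2 (0.982), Ngb (0.978) and Npy4r (0.974), of 14685 genes. For Hcrtr1 the 4 highest were Shc3, Eml2, Asic2 and Prune2 (0.996 to 0.997), and for Adcyap1r1 the 5 highest were Camk2b, Akap11, Slc29a4, 0610010F05Rik and Anapc4 (0.834 to 0.885). Over the 12 ganglia alone, Cckar was most like Slc38a11 (0.964), Hs3st2 (0.956), Gna14 (0.954), Asic1 (0.931) and Bbx (0.928), so Slc38a11 and Gna14 were in both sets. Hcrtr1 was then most like Napg, Drc1, Cend1, Napb and Ccser2 (0.984 to 0.988), and Adcyap1r1 like Dlg2, Zdhhc21, Frmd4a, Adgrb1 and Alg2 (0.964 to 0.969), with 0 genes in common with the sets over 16 libraries.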

How the data were processed

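The authors aligned paired reads from stranded total-RNA libraries to mm10 with STAR and estimated genes with RSEM. They deposited RSEM expected counts, not normalized, and TPM, which RSEM scales to 1000000 in each library. Whether counting used the strand, and the annotation, are not given in the sources used here, so genes with near copies or overlaps are uncertain. The labels call the RNA polyA and every cell type neuroblastoma; tissue was taken from titles. Expected counts were rounded. edgeR 4.0.16 (R 4.3.3) kept 16665 genes (filterByExpr), normalized by TMM and fitted the 5 groups together by the quasi-likelihood method, since 1 group has 2 libraries, with Benjamini-Hochberg adjustment over all genes tested and a threshold of 0.05 in each of 9 contrasts. On simulated counts with 200 genes changed it was tested and made calls in the direction set. In comparisons with tumors, a member with a group at or under 3 counts per library was given as pooled counts, with an exact interval for ratios, in place of or beside its fitted fold change. Counting intervals and floors cover counting error only, since PCR copies of a molecule are not told apart. Coordinates are from GENCODE vM21 (GRCm38) and promoters from RefSeq (GRCm38.p6). Markers were fixed lists. The members and lists were chosen with earlier results of these data known. Named genes were the members, their ligands, and from other lists the called genes with mean TPM of at least 1 and the largest fold changes, at most 4 higher and 4 lower; Npy6r, Sstr2, Gna14 among the arranged genes, and Spx were named beside their counts. Likeness used genes with mean TPM of at least 1 and log2(CPM + 1).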

Additional observations from a re-analysis of the deposited data

Results flagged for a closer look

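In 3 of 20 groups of 4 libraries checked (10 receptors in the TF Runx1t1 wild-type ganglia and in the tumors), 1 library stood far from the rest by Dixon's ratio. Chance gives about 1 in 20 for continuous values, a rate that does not apply here, because with the other 3 libraries at 0 any single count gives the highest ratio. All 3 were tumors with a trace of a receptor where the other 3 tumors were at 0: Hcrtr1 at 0.03 TPM in replicate 1, Cckbr at 0.12 TPM in replicate 1 and Npy5r at 0.02 TPM in replicate 4. Each value rests on 1 to 4 counts.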

How the results depend on the processing

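The counts of members called in tumors against TF ganglia (6), in either MYCN group against tumors (6 and 5), and the counts of 0 among ganglia kept their value or stayed within 1.5 times of it under upper-quartile normalization, no filter or a stricter filter on low counts, and a term for depth. The count of 1 (Cckar) for MYCN with wild-type Runx1t1 became 0 when the fit held just the 2 groups (adjusted p of Cckar 0.378) and 0 with a replicate block (0.0736), and ran from 0 to 1 when single libraries were left out. DESeq2 gave 1 in place of 0 for the difference of the MYCN effects and 1 in place of 0 between the MYCN groups, where leaving out single libraries gave 0 to 1; the cause was not tested. The labels do not say whether replicate numbers pair the libraries, and among ganglia depth followed the replicate number. Correlations showed no pairing common to the 5 groups: of 25 same-numbered pairs, 6 had a correlation of deviations over 0.1 (range -0.492 to 0.331). Of these 6, 4 were all the pairs of TF wild-type ganglia with tumors (0.123 to 0.331), and the block left the count of 6 in tumors against TF ganglia as it was. It took Cckbr in MYCN Runx1t1 wild-type ganglia against tumors to an adjusted p of 0.0624 and, with 0 genes called for MYCN in either the wild-type or the pooled comparison, ended the calls of Agtr2, Adcy1 and Kcnj6 there too; beside Cckbr and Cckar it changed no call of the 10 receptors. Fold changes that turned sign when 1 library was left out were those of Adcyap1r1 with MYCN and wild-type Runx1t1 (-0.23 to 0.11), Vipr2 in tumors (-0.84 to 0.56) and Cckbr in MYCN heterozygotes against tumors (-3.03 to 5.51). With CPM in place of TPM, 3 ratios of mean levels moved by at least the SD of the first group and 27 did not. The ratio of mean Adcyap1r1 in tumors to TF ganglia went from 0.654 to 0.884. That of Hcrtr1 in MYCN heterozygotes to MYCN wild types went from 2.60 to 2.45. Hcrtr2 in the same comparison was 0 on both scales and counted only because its SD was 0. With log2(CPM + 0.1), 2 sets of most alike genes changed and 4 did not, and 4 of the 5 genes most like Cckar were shared. Few libraries and low counts limit Galr1, Vipr2, Cckbr and Hcrtr2. The stricter filter removed Cckbr, Vipr2 and Galr1, a fit of just the groups compared removed Galr1 in tumors and Cckbr in both comparisons of MYCN ganglia with tumors, and Galr1 had no value without TF wild-type replicate 4 or TF heterozygote replicate 3.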
